A study of Mus musculus with 36 samples.

Results

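The genes described here were higher in the Ikaros line than in the control line 2 h after induction and lower in it 24 h after induction. They were chosen by 3 values of the deposited table: a mean over the 36 libraries of at least 9.5 on the log2 scale, an Ikaros minus control difference of at least 0.6 at 2 h, and a difference of at most -0.6 at 24 h. Of 12762 genes in the table, 74 met all 3, which is 0.580%. Both differences therefore stand below as a description, with no test. Tests are given only for the 0, 6, 12 and 18 h libraries, which entered the choice through the overall mean alone. By the annotation used, 52 of the 74 are protein coding, 10 are pseudogenes, 10 are small RNAs, 1 is an antisense RNA and 1 (2900060B14Rik) was not matched by its identifier. At any mean, 185 genes passed both difference cutoffs.

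Messenger RNA was sequenced from B3, a mouse line that models a dividing precursor of B cells, in 36 libraries that form 12 groups of 3. The Ikaros line carries an MSCV retroviral vector for HA-tagged wild type Ikaros fused to ERt2, the hormone-binding part of the estrogen receptor, with an IRES and GFP, and the control line carries the vector with ERt2 but without Ikaros. Both lines were exposed to 4-hydroxy-tamoxifen (4-OHT), which moves the fusion protein into the nucleus, for 0, 2, 6, 12, 18 or 24 h. By the study's methods the drug went into separate flasks at these times before collection, and the flasks of a batch were harvested together. The labels list 0.5 uM 4-OHT for all 36 libraries, also those of 0 h, but by the study's methods the 0 h cells were untreated and collected on other occasions. Each group holds a library of 3 culture batches, numbered 1, 2 and 4 for the 0 h groups and 1, 3 and 4 for all later groups. The study compares an overexpressed, drug-released factor in transduced cells of a cultured line, and the same control libraries serve every gene at a given time.

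Ikaros, encoded by Ikzf1, is a zinc finger transcription factor of lymphoid cells that takes part in the passage of pre-B cells from division to rest. Dividing lymphoid precursors take up glucose and turn much of it into lactate by glycolysis. Many glycolytic genes are also targets of the hypoxia-inducible factors, transcription factors that accumulate when oxygen is low and that bind short promoter elements. Genes of both kinds are among the 74, as counted below.

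The line labels were checked with Ikzf1, which lay between 13.95 and 14.85 in the 18 control libraries and between 19.63 and 20.93 in the 18 Ikaros libraries, with no overlap. All 10 B lineage markers searched were measured, with a median mean level of 15.50 (log2). Of 10 markers of T and NK cells 2 were measured, neither at a mean of 9.5 or more. Of 12 myeloid and 11 erythroid or megakaryocyte markers, 4 and 5 were measured, and 1 of each list reached that mean. Library medians lay between 11.70 and 11.73, and sequencing depth cannot be read from these normalized values. The control and Ikaros libraries of batch 4 at 0 h stood apart for many of the glycolytic and hypoxia genes, as described with them.

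Before induction the median Ikaros minus control difference of the 74 genes, on the log2 scale, was 0.47. It reached 0.87 at 2 h and 0.59 at 6 h, was close to 0 by 12 h (0.09), and then went to -0.85 at 18 h and to -1.29 at 24 h. Over all 12762 genes the medians at 0, 6, 12 and 18 h lay between -0.03 and -0.01. In these bulk samples fewer cells that express a gene and less RNA per cell cannot be told apart. At 0 h 64 of the 74 differences were already above 0, and at 18 h 71 were below 0. The difference fell below 0 for good at 12 h in 27 genes and at 18 h in 40, and did so at 6 h in 4 and at 24 h in 3.

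**Figure D1:**
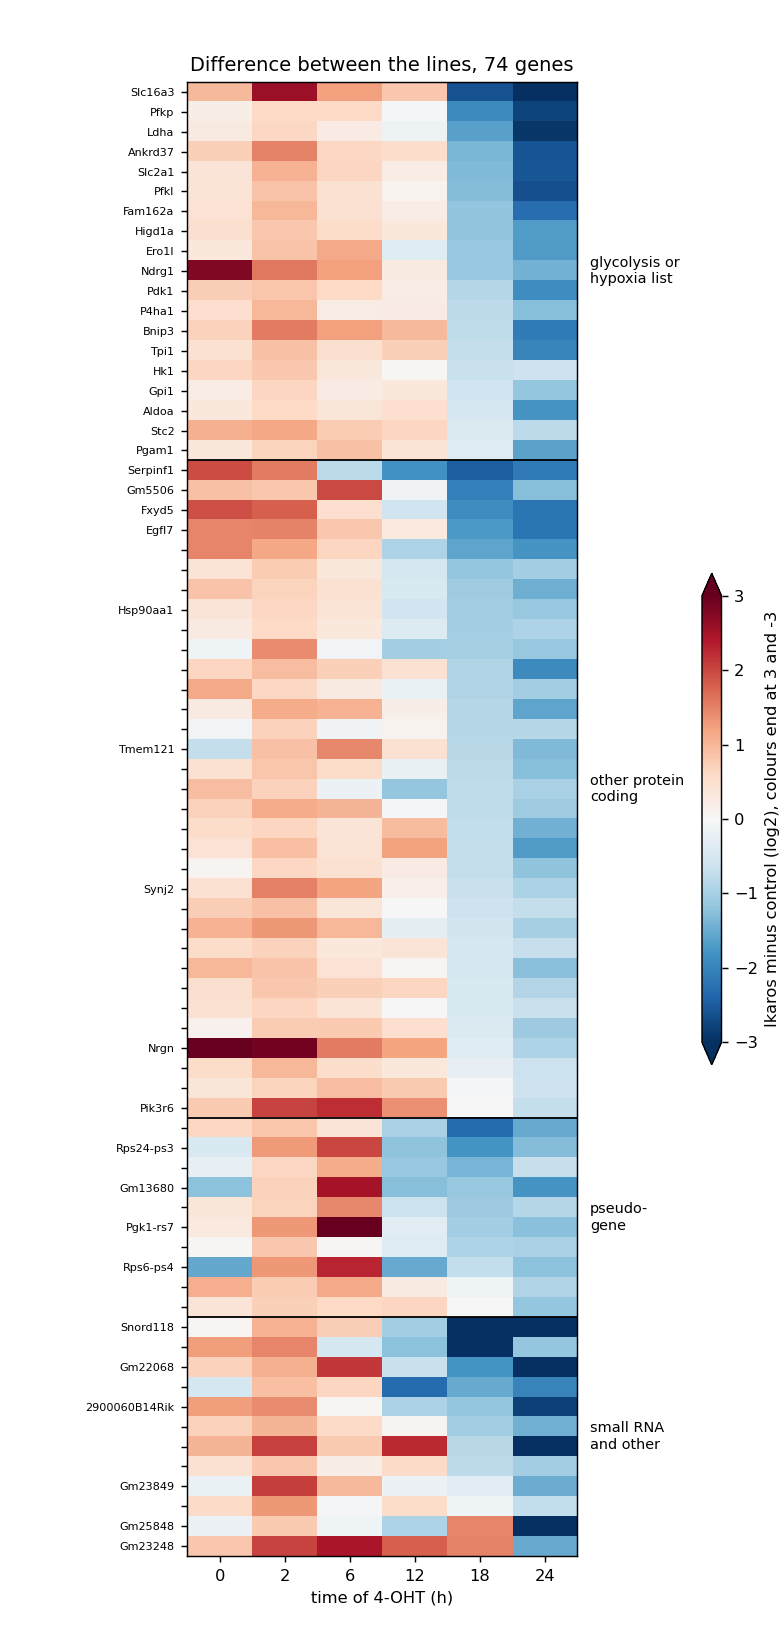
Ikaros minus control difference (log2, means of 3 libraries a group) for the 74 genes (rows) at 6 times (columns), in blocks of genes on the glycolysis or hypoxia lists, other protein-coding genes, pseudogenes, and small or other RNAs, each ordered by the 18 h difference. Colours end at 3 and -3, and names are given for the genes chosen by the naming rule other than its cutoff part. The 2 h and 24 h columns chose the genes. In the 18 h column 71 of 74 cells are below 0.

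In limma fits over all genes, with Benjamini-Hochberg adjustment and calls at an adjusted p under 0.05, 17 of the 74 genes were called higher in the Ikaros line at 0 h, against a background of 4.61% of all genes, and 1 was called lower, against 3.72%. At 6 h 35 were called higher (background 18.1%) and 1 lower (19.2%). At 12 h 15 were called higher (background 23.0%) and 7 lower (22.8%), shares that lie below the background. At 18 h 46 were called lower (background 29.2%) and 0 higher (29.0%), and the highest difference there, 1.48 for Gm23248, had an adjusted p of 0.0901, or 0.045 with a replicate block for culture batch. The number of calls at 6 h varied with the libraries fitted. Without replicate 1 (batch 1) of every group 14 genes were called at 6 h, without replicate 2 18, and 20 when the 6 h groups were fitted alone, against 36 with all libraries. At 0 h 10 were called without replicate 2, against 18, and at 12 h 13 without replicate 1, against 22.

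The turn itself was tested as the change of the difference from 6 h to 18 h. It was negative in 73 of the 74 genes, with a median of -1.54 against 0.01 over all genes. The change was called lower for 55 (limma, background 15.7%) and higher for none. The 74 were chosen to fall from 2 h to 24 h and the background genes were not. Within the Ikaros line, 73 of the 74 fell from 6 h to 18 h, with a median change of -1.60, and 68 were called lower (background 22.6%). Within the control line the median change was -0.02, and limma called 0 of the 74 between the same times (background 0.580% in either direction), 4 of them having an unadjusted p under 0.05. Over all genes the unadjusted share was 15.4%. Without replicate 3 (batch 4) 2 of the 74 were called in the control line, 1 higher and 1 lower, against 414 of all 12762 genes. The fall from 6 h to 18 h thus lay in the Ikaros libraries.

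**Figure D2:**
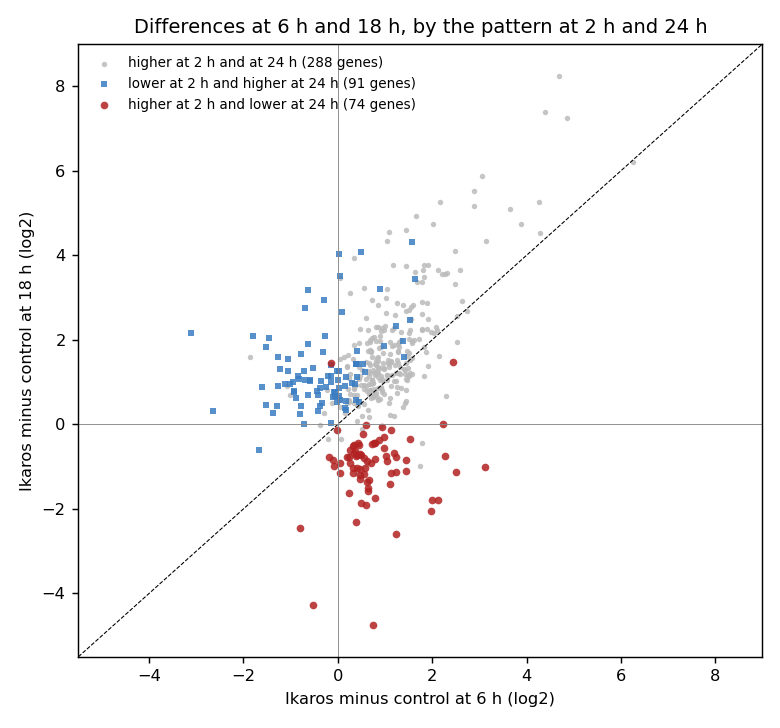
Ikaros minus control difference at 6 h (horizontal) and at 18 h (vertical), both log2, for the 74 genes (red), 91 genes lower at 2 h and higher at 24 h (blue) and 288 genes higher at both times (grey); 1 point is a gene and the dashed line marks equal differences. Of the 74, 73 lie below the line.

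Another 2 groups of genes were picked with the same cutoffs in other directions. The 91 genes that were lower at 2 h and higher at 24 h had a median change from 6 h to 18 h of 1.33. Of them 63 were called higher and 0 lower (15.6% and 15.7% of all genes). The 288 genes that were higher at both 2 h and 24 h had a median change of 0.44, with 111 called higher and 6 lower. These groups were chosen by the same libraries, and no test was run between them.

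The word rise fits the difference between the lines better than the Ikaros line itself. In 49 of the 74 the Ikaros mean was higher at 2 h than at 0 h, and the median change of the 74 was 0.17. In 55 the control mean was lower at 2 h than at 0 h, and the median change of the 74 was -0.22. Of all 12762 genes, 6746 had the higher Ikaros mean and 6435 the lower control mean at 2 h. The control mean had its lowest value of the 6 times at 2 h in 32 of the 74 (43.2%), compared with 11.5% of all genes. In 63 the 2 h difference was larger than the 0 h difference, as it was in 6771 of all 12762 genes. These 2 h libraries chose the genes, and the 0 h cells were collected on other occasions, so the values are a description.

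RefSeq promoters (GRCm38.p6) were found for 41 of the 74 genes, 40 of them protein coding. The 250 bases before each start were searched on both strands for ACGTG and GCGTG, the core letters of the hypoxia response element, and for GGGAA, the core letters that Ikaros binds. A CACGTG, the E-box, counts as 2 matches of the former, since ACGTG then lies on both strands. Promoters of 4 genes are shown because the values of these genes are described below. Slc16a3 had the largest fall from 6 h to 18 h among genes of the glycolysis list, Bnip3 and Ldha are on the hypoxia list, and Fxyd5 is on neither list, holds no hypoxia core and has the most Ikaros cores of the 54 promoters. Ldha has another promoter, with 1 hypoxia core, which is not shown. Capitals mark the hypoxia core in the first 3 and the Ikaros core in Fxyd5, on either strand. Each is written 5′ to 3′ along the strand of its gene and ends at the base before the start.
Slc16a3: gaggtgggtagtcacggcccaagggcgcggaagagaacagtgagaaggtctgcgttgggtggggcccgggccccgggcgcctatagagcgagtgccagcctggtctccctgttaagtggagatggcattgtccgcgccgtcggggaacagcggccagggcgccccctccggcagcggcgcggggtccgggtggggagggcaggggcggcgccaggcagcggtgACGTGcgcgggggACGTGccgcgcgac
Bnip3: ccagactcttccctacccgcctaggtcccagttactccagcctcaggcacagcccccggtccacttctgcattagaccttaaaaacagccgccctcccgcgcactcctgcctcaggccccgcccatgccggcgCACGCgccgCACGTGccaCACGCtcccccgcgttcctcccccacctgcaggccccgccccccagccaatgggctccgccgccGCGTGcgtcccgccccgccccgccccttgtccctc
Ldha: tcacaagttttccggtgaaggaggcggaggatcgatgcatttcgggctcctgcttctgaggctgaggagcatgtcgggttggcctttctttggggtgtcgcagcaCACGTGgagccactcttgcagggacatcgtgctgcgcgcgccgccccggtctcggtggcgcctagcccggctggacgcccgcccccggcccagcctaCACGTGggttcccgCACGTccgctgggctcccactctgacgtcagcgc
Fxyd5: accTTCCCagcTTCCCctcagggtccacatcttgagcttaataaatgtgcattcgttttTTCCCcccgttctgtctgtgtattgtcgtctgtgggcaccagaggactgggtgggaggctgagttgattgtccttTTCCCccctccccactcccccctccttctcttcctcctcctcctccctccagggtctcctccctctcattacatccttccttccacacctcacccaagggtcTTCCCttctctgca

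Positions are chr11:120948817-120949066 on the forward strand for Slc16a3, chr7:138909507-138909756 on the reverse strand for Bnip3, chr7:46845554-46845803 on the forward strand for Ldha and chr7:31042332-31042581 on the reverse strand for Fxyd5. The hypoxia core matched 2 times in Slc16a3, 5 times in Bnip3 and 5 times in Ldha, and the Ikaros core matched 5 times in Fxyd5. The glycolysis or hypoxia list genes had 22 promoters from 17 genes. Of these promoters 17 (77.3%), from 15 genes, held the hypoxia core, compared with 55.5% of the 11683 promoters of genes in the table and 38.6% of all 32851. The core contains CG and these promoters are rich in it, with a median GC content of 64.2% against 59.6% for genes in the table. Among table promoters with a GC content from 60% to 70%, 66.9% held the core. Of the other protein-coding genes 54.8% of 31 promoters held it. The Ikaros core was in 59.3% of the 54 promoters of the 74 genes and in 58.3% of those of the table. A match of these letters is no evidence of binding.

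The glycolysis list held 21 measured genes, of which 10 were among the 74: Slc2a1, Hk1, Gpi1, Pfkl, Pfkp, Aldoa, Tpi1, Pgam1, Ldha and Slc16a3. They run from glucose uptake to lactate export, but Gapdh, Pgk1, Eno1 and Pkm of the later steps are on the list and not among the 74. At 18 h 9 of the 10 were called lower in the Ikaros line and none higher (limma), with a median difference of -1.01, against -0.02 over all genes. The change from 6 h to 18 h was called lower for all 10 (15.7% of all genes), with a median of -1.51. Of these calls Gpi1, Aldoa and Tpi1 did not pass without replicate 2 (adjusted p 0.104, 0.191 and 0.213), and Aldoa and Tpi1 also not without replicate 1 (0.135 and 0.0859). Over all genes 29.2% were called lower at 18 h. Earlier, 1 of the 10 was called higher at 0 h (4.61% of all genes), 4 at 6 h (18.1%) and 2 at 12 h (23.0%), the last below the share of all genes. Of the 11 measured genes of the list outside the 74, 3 were called lower and 2 higher at 18 h, and the change from 6 h to 18 h was called lower for 7 and higher for 1. Those 2, named after their values were seen, were Pfkfb4, which makes and breaks down an activator of phosphofructokinase, and Slc16a1, a transporter of lactate and other monocarboxylates. Their 18 h differences were 2.11 and 1.99.

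Slc16a3, which exports lactate from glycolytic cells, had the largest 2 h difference of the list, 2.57, and the lowest at 24 h, -4.77. At 6 h it stood at 11.66, 12.95 and 13.19 in the control libraries and at 13.25, 14.26 and 13.97 in the Ikaros libraries of batches 1, 3 and 4. At 18 h the control libraries held 11.83, 12.75 and 12.91 and the Ikaros libraries 10.53, 10.15 and 9.0. The Ikaros libraries were the higher ones at 6 h and the lower ones at 18 h, without overlap. The difference was 1.23 at 6 h (SE 0.52, limma adjusted p 0.0669, and 0.0378 with a replicate block for culture batch) and -2.60 at 18 h (SE 0.52, adjusted p 0.000119). In the Ikaros line the gene changed by -3.93 between these times and in the control line by -0.10.

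Ldha makes lactate from pyruvate at the end of the pathway. Its control libraries held 17.67, 18.02 and 18.03 at 6 h and 17.32, 17.82 and 17.94 at 18 h. The Ikaros libraries held 17.85, 18.31 and 18.28 at 6 h and 16.17, 16.09 and 15.95 at 18 h, all below the control libraries at the later time. At 6 h the Ikaros library was the higher one within batches 1, 3 and 4, by 0.18, 0.29 and 0.25. Across batches the groups overlapped, and the mean difference of 0.24 did not pass (limma adjusted p 0.415). At 18 h it was -1.62 (SE 0.22, adjusted p 4.77e-07).

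**Figure D3:**
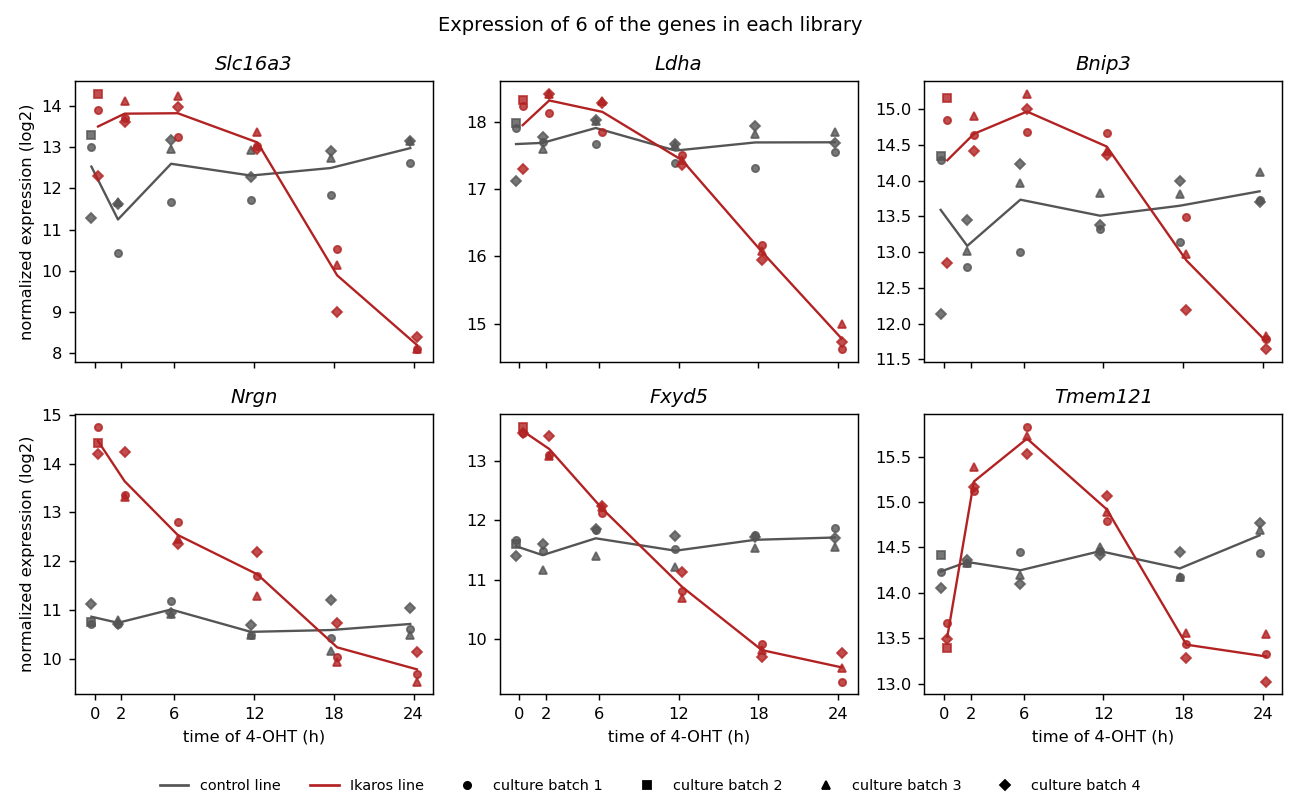
Normalized expression (log2, vertical) of Slc16a3, Ldha, Bnip3, Nrgn, Fxyd5 and Tmem121 in each of 36 libraries against time (h, horizontal). Grey is the control line and red the Ikaros line, lines join group means (n = 3), and marker shapes give the culture batch. At 18 h the red markers lie below the grey ones for Slc16a3, Ldha, Fxyd5 and Tmem121, and at 0 h the batch 4 diamonds lie low for Slc16a3, Ldha and Bnip3.

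Other steps of the pathway differed by varying amounts at 18 h. Slc2a1, the glucose transporter of most dividing cells, held 13.34, 13.47 and 14.00 in the control and 12.66, 12.12 and 12.06 in the Ikaros libraries at 18 h, a difference of -1.32 (SE 0.25, limma adjusted p 4.78e-05). Pfkp and Pfkl are subunits of phosphofructokinase, the main control point of glycolysis. Pfkp had 14.00, 14.23 and 13.88 in the control and 12.31, 12.34 and 11.73 in the Ikaros libraries at 18 h, a difference of -1.91 (SE 0.18, adjusted p 1.13e-09), and Pfkl differed by -1.30 (SE 0.24, adjusted p 5.28e-05). In both genes all Ikaros libraries lay below all control libraries at that time. At 6 h Pfkp had been higher by 0.59 (adjusted p 0.0128), a call lost without replicate 1 (0.21) or replicate 2 (0.0638).

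Hk1, a hexokinase of the first step, was higher in the Ikaros line by 0.65 at 0 h (limma adjusted p 0.00148) and lower by 0.68 at 18 h (a difference of -0.68, adjusted p 8.64e-05). The 0 h call was lost without replicate 1 (0.0969) or replicate 2 (0.168). Enzymes of the middle steps differed at 18 h by -0.61 for the isomerase Gpi1, -0.49 for the aldolase Aldoa and -0.72 for the triosephosphate isomerase Tpi1 (adjusted p 0.00235, 0.0343 and 0.025). Without replicate 2 the adjusted p was 0.0644 for Gpi1, 0.191 for Aldoa and 0.217 for Tpi1, and without replicate 1 it was 0.0659 for Aldoa. Pgam1, the phosphoglycerate mutase, was at -0.38 at 18 h (adjusted p 0.136, and 0.0477 with the replicate block) after 0.88 at 6 h (adjusted p 0.0021). Aldoa and Tpi1 were still higher at 12 h, by 0.49 and 0.70 (adjusted p 0.0431 and 0.0357), calls that were lost without replicate 1 (0.191 and 0.203) or replicate 2 (0.174 and 0.182).

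**Figure D4:**
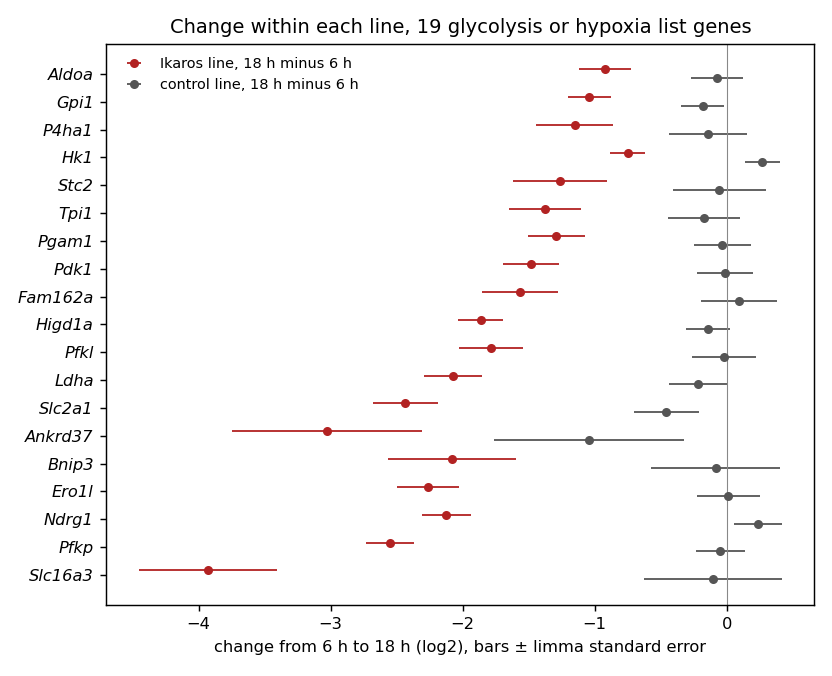
Change from 6 h to 18 h (log2, horizontal) within the Ikaros line (red) and the control line (grey) for the 19 genes of the glycolysis or hypoxia lists (vertical), ordered by the change of the difference. Points are differences of means of 3 libraries and bars are limma standard errors. All 19 red points lie below 0, from -0.75 for Hk1 to -3.93 for Slc16a3.

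The hypoxia-inducible factor list held 33 measured genes, and 13 were among the 74. Slc2a1, Tpi1, Ldha and Slc16a3 are on the glycolysis list too, so the lists together account for 19 genes. The other 9 are Ndrg1, Bnip3, Fam162a, Higd1a, Pdk1, P4ha1, Ero1l, Stc2 and Ankrd37. Of the 13, 2 were called higher before induction (4.61% of all genes), 6 at 6 h (18.1%) and 1 at 12 h, where 7.69% of the 13 lies below the 23.0% of all genes. None was called lower at these times. At 18 h 10 were called lower, with a median difference of -1.14, and the change from 6 h to 18 h was called lower for 10 (15.7% of all genes). The 20 measured genes of the list outside the 74 had 7 called higher and 6 lower at 18 h, near the shares of all genes (29.0% and 29.2%), with a median of -0.15. The 13 were selected for low values at 24 h, and no test was run between them and these 20.

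Ndrg1, a gene induced by hypoxia and by growth arrest, had the largest difference before induction of these 13 genes. At 0 h its control libraries held 11.84, 11.65 and 11.10 and its Ikaros libraries 14.52, 14.50 and 13.93, a difference of 2.79 (SE 0.18, limma adjusted p 3.81e-11). At 18 h the control libraries held 11.52, 11.31 and 11.60 and the Ikaros libraries 10.56, 10.24 and 10.22, a difference of -1.14 (SE 0.18, adjusted p 6.78e-06). The groups did not overlap at either time and their order was reversed.

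Several of these genes act at mitochondria. Bnip3 is a receptor for the removal of mitochondria by autophagy, and Pdk1 blocks the entry of pyruvate into mitochondrial metabolism. Bnip3 held 13.00, 13.97 and 14.23 in the control and 14.68, 15.21 and 15.00 in the Ikaros libraries at 6 h, a difference of 1.23 (SE 0.49, limma adjusted p 0.0484), which was lost without replicate 1 (0.306) or replicate 2 (0.223). At 18 h the 13.15, 13.81 and 13.99 of the control and the 13.49, 12.97 and 12.19 of the Ikaros libraries overlapped, and the difference was -0.77 (adjusted p 0.182). The groups of Pdk1 did not overlap at 18 h, with 12.58, 12.87 and 12.92 in the control and 12.19, 11.91 and 11.68 in the Ikaros libraries, a difference of -0.86 (SE 0.21, adjusted p 0.0011). Fam162a and Higd1a, proteins of the mitochondrial membrane, differed by -1.19 and -1.17 at 18 h (adjusted p 0.000981 and 1.32e-06).

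Ero1l, an oxidase for protein folding in the endoplasmic reticulum that is also on the list of that compartment, differed by 1.14 at 6 h and -1.14 at 18 h (limma adjusted p 0.000479 and 0.000189). P4ha1, a subunit of the hydroxylase of collagen prolines, was at -0.78 at 18 h (adjusted p 0.0248), a call lost without replicate 2 (0.215) or replicate 3 (0.0925). Stc2, a secreted glycoprotein also on the integrated stress response list, was at 0.77 at 6 h and -0.44 at 18 h, neither past the test (adjusted p 0.0903 and 0.297). Ankrd37 was among the least even, with 10.32, 11.05 and 13.00 in the control and 10.53, 9.46 and 10.29 in the Ikaros libraries at 18 h (difference -1.36, adjusted p 0.107). Within the Ikaros line alone all 13 were called lower at 18 h than at 6 h (22.6% of all genes). Without replicate 2 Ankrd37, Stc2 and P4ha1 did not pass there (limma adjusted p 0.0853, 0.106 and 0.0924).

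As sets, 15 of the 19 list genes were called lower at 18 h and 16 for the change from 6 h to 18 h (29.2% and 15.7% of all genes). Leaving out a replicate of every group gave 11 to 14 and 11 to 16, the smallest counts without replicate 2. The 9 called higher at 6 h became 3 without replicate 1 and 3 without replicate 2, and 4 with the 6 h groups fitted alone. The 3 called at 0 h (Ndrg1, Pdk1 and Hk1) became 1 without replicate 1, 1 without replicate 2 and 1 with the 0 h groups fitted alone, and 5 with a replicate block for culture batch. The 0 h difference of Pdk1, 0.74 (limma adjusted p 0.0268), did not pass under the former 3 (0.254, 0.5 and 0.273). The lists were drawn up with earlier results of these libraries known, and the genes were selected on them, so these counts are no independent evidence of a direction.

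Another feature of the 19 genes appeared within groups, in libraries that the 2 h and 24 h cutoffs did not use. At 0 h the batch 4 library was lower than the batch 1 and batch 2 libraries by over 0.5 in 16 of 19 genes in the control line and in 18 of 19 in the Ikaros line, compared with 3.56% and 3.96% of all genes. The median gap was -0.87 in the control and -0.94 in the Ikaros line, while over all genes it was 0.02 and 0.03. Slc16a3 shows it with 13.00 and 13.30 against 11.29 in the control and 13.91 and 14.30 against 12.30 in the Ikaros line. Among the 33 protein-coding genes on neither list, 6 and 4 had such a gap. Averaged over the 19 genes and relative to each gene's mean, the 0 h values were 0.44, 0.47 and -0.58 in the control and 1.07, 1.12 and 0.03 in the Ikaros line. The lines of a batch thus moved together, and the Ikaros minus control difference was alike in all 3 batches at 0 h. In the control line the mean was lowest of all times at 2 h for 16 of the 19 (84.2%), which is a description, since 2 h libraries chose the genes. The part of culture conditions in these values was not tested.

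**Figure D5:**
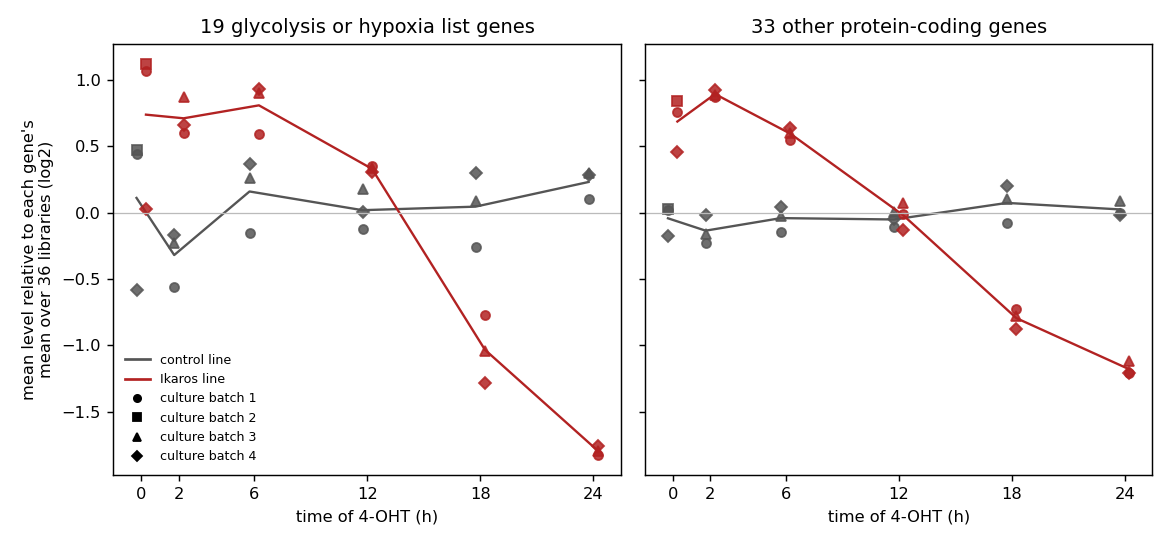
Mean level of the 19 glycolysis or hypoxia list genes (left) and of the 33 other protein-coding genes (right) in each library, relative to each gene's mean over 36 libraries (log2, vertical), against time (h, horizontal). Grey is the control and red the Ikaros line, lines join means of 3 libraries, and marker shapes give the culture batch. At 0 h batch 4 lies at -0.58 (control) and 0.03 (Ikaros) on the left, below batches 1 and 2.

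For the 33 protein-coding genes on neither list, calls before induction were more frequent. At 0 h 14 of the 33 were called higher in the Ikaros line and 1 lower (limma), against 3 and 0 of the 19. Over all genes the shares were 4.61% and 3.72%. The median 0 h difference was 0.55 for the 33 and 0.46 for the 19. At 6 h 20 of the 33 were called higher and 1 lower, at 12 h 10 higher and 7 lower, and at 18 h 25 lower and 0 higher. The 12 h counts are near the shares of all genes (23.0% higher and 22.8% lower), while 18.1% of all genes were called higher at 6 h and 29.2% lower at 18 h. The change from 6 h to 18 h was called lower for 28 (15.7% of all genes), with a median of -1.36. Without replicate 2 the counts at 18 h and for the change were 20 and 20, and 9 were called higher at 0 h. At 6 h 11 were called higher without replicate 1, 10 without replicate 2 and 11 with the 6 h groups fitted alone. Whether the 2 sets differ was not tested.

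Nrgn, a calmodulin-binding protein best known from neurons, had the largest 2 h difference of the 74, 2.90, but a larger one at 0 h. The 0 h values were 10.71, 10.77 and 11.12 in the control and 14.76, 14.43 and 14.20 in the Ikaros libraries, a difference of 3.59 (SE 0.27, limma adjusted p 2.48e-10). At 6 h the control libraries held 11.18, 10.92 and 10.94 and the Ikaros libraries 12.81, 12.45 and 12.35. The gap then closed, and at 18 h the libraries overlapped, with 10.42, 10.16 and 11.20 against 10.04, 9.94 and 10.73 (difference -0.35, adjusted p 0.262). Within batches 1, 3 and 4 Nrgn differed by -0.38, -0.21 and -0.47 at 18 h. Its mean in the Ikaros line was lower at each later time, from 14.46 at 0 h to 9.79 at 24 h, while the control means stayed between 10.56 and 11.01.

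Fxyd5, a regulator of the sodium pump and of cell adhesion, and Serpinf1, a secreted protein of the serpin family, followed the same kind of course. Fxyd5 had 11.68, 11.61 and 11.41 in the control and 13.46, 13.57 and 13.47 in the Ikaros libraries at 0 h, and 11.76, 11.53 and 11.73 against 9.93, 9.83 and 9.71 at 18 h. Its difference went from 1.94 (SE 0.15, limma adjusted p 8.07e-10) to -1.85 (SE 0.15, adjusted p 7.13e-11), without overlap at either time. Serpinf1 was the only gene of the 74 called lower at 6 h. It had 12.37, 11.86 and 12.07 in the control and 11.12, 11.24 and 11.55 in the Ikaros libraries then, a difference of -0.80 (adjusted p 0.00553) that did not pass without replicate 1 (0.208). At 0 h its difference had been 1.97 and at 18 h it was -2.46 (adjusted p 3.21e-07 and 2.98e-10).

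Egfl7, a secreted protein of endothelium whose gene hosts a microRNA, and Ass1, the argininosuccinate synthase of arginine synthesis, were also higher before induction, by 1.45 and 1.46 (limma adjusted p 3.06e-05 and 8.69e-10). At 18 h they differed by -1.73 and -1.58 (adjusted p 1.31e-07 and 8.01e-12). Ass1 was named after its values were seen. Egfl7 had 9.18, 9.47 and 10.17 in the control and 7.82, 7.89 and 7.92 in the Ikaros libraries at 18 h, so the Ikaros libraries were the low ones. Its mean of 9.51 is the lowest of the 74.

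A second course rose from 0 h. Tmem121, a membrane protein, was the only gene of the 74 called lower in the Ikaros line at 0 h, with 14.23, 14.42 and 14.05 in the control and 13.67, 13.39 and 13.49 in the Ikaros libraries. That difference of -0.72 (SE 0.13, limma adjusted p 0.000405) did not pass without replicate 2 (0.158). At 6 h the order was turned, with 14.45, 14.20 and 14.09 against 15.83, 15.73 and 15.53, a difference of 1.45 (SE 0.13, adjusted p 2.57e-09). At 18 h it was turned again, with 14.18, 14.18 and 14.45 against 13.44, 13.56 and 13.29, a difference of -0.84 (SE 0.13, adjusted p 4.26e-06). No libraries overlapped at these 3 times.

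Pik3r6, a regulatory subunit of a phosphoinositide kinase of leukocytes, was higher at 6 h by 2.22, the largest such difference among protein-coding genes, with 12.50, 12.23 and 12.47 in the control and 14.34, 14.73 and 14.78 in the Ikaros libraries (SE 0.17, limma adjusted p 1.75e-10). At 18 h its libraries overlapped, with 12.29, 12.13 and 12.38 against 12.34, 12.45 and 12.02, and the difference was 0.00 (adjusted p 0.986). Its fall below the control level was seen only at 24 h, at -0.72. Synj2, an inositol phosphatase, was higher by 1.19 at 6 h and lower at 18 h, at -0.67 (adjusted p 5.08e-09 and 1.23e-05). Hsp90aa1, the inducible form of the chaperone HSP90 and the only gene of the heat shock list (of 14 measured) among the 74, was at -0.56 at 12 h (adjusted p 0.0135, and 0.222 without replicate 3) and at -1.04 at 18 h (adjusted p 2.35e-05).

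Some other genes of sugar and lactate handling were on neither list and were singled out after their values were seen. Bsg, a membrane partner of monocarboxylate transporters, Gbe1, the glycogen branching enzyme, and Pgm2, the phosphoglucomutase that the annotation calls Pgm1, differed by -0.71, -0.74 and -0.46 at 18 h (limma adjusted p 0.000159, 0.0105 and 0.0926). Without replicate 2 Gbe1 did not pass (0.0897). Their change from 6 h to 18 h was -1.17, -1.13 and -1.18 (adjusted p 8.91e-05, 0.0128 and 0.00676), and without replicate 2 the last 2 did not pass (0.157 and 0.118).

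Among the remaining protein-coding genes, of which those outside the naming rule were chosen after their values were seen, most had smaller differences. Slc11a1, a metal transporter of phagosomes, and its neighbour Pnkd differed by 0.71 and 1.02 at 6 h (limma adjusted p 0.000187 and 2.38e-08) and by -0.91 and -0.75 at 18 h (adjusted p 2.36e-06 and 8.19e-07). Rhof, a small GTPase, had 10.64, 10.91 and 10.87 in the control and 12.17, 12.01 and 11.37 in the Ikaros libraries at 6 h, and 11.27, 11.24 and 10.93 against 10.38, 10.32 and 10.13 at 18 h. Its differences were 1.04 and -0.87 (adjusted p 3.03e-05 and 0.000107), without overlap at either time.

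Mtap, which recycles methylthioadenosine to methionine, and Nek6, a kinase of mitosis, were higher at 0 h by 1.14 and 0.85 (limma adjusted p 0.000105 and 0.00132) and lower at 18 h, at -0.91 and -1.07 (adjusted p 0.000155 and 6.89e-06). Rcor2, a corepressor, was higher by 0.78 at 6 h and at -0.44 at 18 h (adjusted p 7.72e-06 and 0.00195). Cox7a1, a subunit of cytochrome oxidase, was higher by 1.22 at 12 h (adjusted p 0.00885, and 0.0682 without replicate 1) and at -0.71 at 18 h (adjusted p 0.102). The histone genes Hist1h4k and Hist1h1a, whose transcripts mostly lack poly(A) tails and are poorly measured after oligo dT selection, passed at none of the 4 tested times, and Hist1h4k was the gene of the 74 that did not decline in the Ikaros line from 6 h to 18 h (change 0.79, adjusted p 0.176).

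The antisense gene ENSMUSG00000097439 lies opposite Keap1, an adaptor for the degradation of the stress factor NRF2, and its reads could be told apart from that gene only if counting used strand. The libraries kept strand (dUTP protocol), but the setting of the counting is unknown here. It had the lowest 24 h difference of the 74, -5.04, with 11.48, 11.77 and 11.68 in the control and 6.65, 6.23 and 6.94 in the Ikaros libraries. At 0 h its batch 4 libraries were low in both lines, with 12.17, 12.41 and 8.49 in the control and 13.01, 13.28 and 9.81 in the Ikaros line. It was called higher at 12 h, by 2.25 (limma adjusted p 0.02), and not without replicate 1 (0.106) or replicate 2 (0.128).

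The 10 pseudogenes and 10 small RNAs are uncertain. Processed pseudogenes resemble their parent genes, among them those of ribosomal proteins and Pgk1, and reads can be split between the copies. Libraries made with oligo dT measure small RNAs poorly, and 7 of the 10 small RNAs lie in another gene on the same strand, such as Snord4a in Rpl23a and Gm22068 in Tex14. The spread was wide in these classes. At 18 h 3 pseudogenes and 3 small RNAs were called lower (limma), and the change from 6 h to 18 h was called lower for 7 and 4. Over all genes 29.2% were called lower at 18 h, a share that 3 of 10 matches, and 15.7% for the change. Gm22710 shares its strand and place with 2900060B14Rik, so reads may be shared and these cannot be taken as separate observations. Their differences were 0.56 and -0.95 at 12 h.

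Snord118, a small nucleolar RNA, had the largest fall, with 10.39, 10.80 and 10.66 in the control and 10.38, 11.43 and 12.28 in the Ikaros libraries at 6 h, and 9.94, 11.46 and 12.39 against 6.42, 7.42 and 5.67 at 18 h. The 18 h difference was -4.76 (SE 0.64, limma adjusted p 4.80e-07). Pgk1-rs7, a processed pseudogene of Pgk1, was higher at 6 h by 3.12 (SE 1.02, adjusted p 0.0174) with 9.93, 12.31 and 9.87 in the control and 14.96, 14.05 and 12.47 in the Ikaros libraries. That call was lost without replicate 1 (0.331) or with the 6 h groups fitted alone (0.0627). Gm5506 is annotated as protein coding and is a near copy of the enolase gene Eno1, so its 18 h difference of -2.04 (adjusted p 0.00944, and 0.163 without replicate 2) is uncertain as well. Gm13680 and Rps6-ps4 were higher at 6 h by 2.50 and 2.28 (adjusted p 0.00324 and 0.0442), calls lost without replicate 1 (0.171 and 0.297), and the Rps6-ps4 call also without replicate 2 (0.0707).

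The small RNA Gm23248 was higher at 6 h by 2.45 (limma adjusted p 0.0114, and 0.24 without replicate 1) and Gm25848 was at 1.46 at 18 h (adjusted p 0.198), the latter the 1 gene of the 74 with a positive change from 6 h to 18 h. Gm23849, which had the third highest 2 h difference at 2.07, passed at none of the tested times in either direction (adjusted p from 0.26 to 0.931). 2900060B14Rik differed by 1.43 at 2 h and by -2.80 at 24 h and did not pass between the lines at 0, 6, 12 or 18 h.

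Of 16 other gene lists examined, including those for S phase, G2/M phase, ribosome biogenesis, cholesterol and fatty acid synthesis, the pentose phosphate pathway and B lineage genes, 3 held 1 gene of the 74 each (Stc2 for the integrated stress response, Ero1l for endoplasmic reticulum folding and Hsp90aa1 for heat shock) and 13 held 0. Within culture batches, 57 of the 74 were higher in the Ikaros line in all 3 batches before induction, 61 at 6 h and 27 at 12 h. In all 3 batches 14 were lower at 12 h and 54 at 18 h. The share of all genes with such agreement was not counted, so these counts have no background. On the genome, the only 2 of the 74 within 200000 bases of each other with a position were Slc11a1 and Pnkd on chromosome 1, with 21501 bases between them. Of the 74, 28 of the 52 protein-coding genes overlap another annotated gene, 10 of them on the same strand, and although the libraries were strand-specific, the strand setting of the counting is not given in the sources used here.

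The cutoffs divide a continuous range. Just inside the 2 h cutoff was Pfkp at 0.61, and just outside were Mrpl23-ps1 at 0.60 and Hvcn1 at 0.59. Just inside the 24 h cutoff were Hk1 and Arsb, both at -0.62, and just outside were P4hb at -0.59 and Gm6563 at -0.57. For the mean, Egfl7 at 9.51 and Gm24439 at 9.54 were inside and Atp2b4 at 9.48 and 1600014C23Rik at 9.45 outside. With values of 2 replicates a group the same cutoffs chose 77, 75 and 106 genes without replicates 1, 2 and 3, of which 55, 57 and 67 were among the 74.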

How the data were processed

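Strand-specific RNA-seq libraries were prepared by a dUTP protocol from poly(A) RNA of B3 cells, and 1 deposited table with 36 columns of normalized values was analysed. The authors trimmed reads, mapped them to mm10 with TopHat2, keeping fragments with a unique best position, counted them per gene with HTSeq, corrected for GC content and gene length with cqn, removed library preparation effects with non-parametric ComBat and added a constant that makes the lowest value 1, so the deposited values are on a log2 scale (base 2 as cqn builds it, since the table states no base). Versions and the strand setting of counting are not given in the sources used here. Read counts are not analysed here, so depth and counting error are unknown. Values corrected by ComBat can understate the spread between libraries.

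Differences were fitted with limma 3.58.1 (R 4.3.3), on group means (12 groups) over all 12762 genes, two-sided, with Benjamini-Hochberg adjustment and calls at an adjusted p under 0.05. Standard errors are limma's. P-values measure the spread between these libraries, which came from separate culture batches of the same transduced lines. The labels tie the libraries of a number to a culture batch. A control and an Ikaros library from 1 time and batch make a pair, 18 in all. Over all genes the correlation of their deviations from the group means ran from -0.06 to 0.51 (median 0.13, over 0.1 in 12). Over the 19 glycolysis or hypoxia list genes it ran from -0.57 (18 h, batch 1) to 0.98 (0 h, batch 4). It was 0.81, 0.77 and 0.98 at 0 h and 0.70, 0.40 and 0.70 at 6 h. The main fit did not use the pairs, and the culture batch as a replicate block was an alternative. The others were quantile normalization, a filter that kept genes with a mean from the 25th percentile up, limma with trend and robust settings, only the compared groups, and each replicate left out. Fits were tested on simulated data.

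Named were the genes of the 74 with the 12 largest differences at 2 h, the 12 lowest at 24 h, the 6 highest and 6 lowest among those called at 6 h, the 6 largest falls from 6 h to 18 h, the 4 highest and 4 lowest among those called at 0 h, those on a list, and those nearest to each cutoff, of which 1 is not reported here. The genes, cutoffs and lists were chosen with earlier results of these data known. Kinds and positions came from GENCODE vM21 (GRCm38), which held 98.7% of the genes, and promoters from RefSeq GRCm38.p6, kept where they lay on the same chromosome and strand within 5000 bases of the gene. No column of the table was of a sample outside the series, and no batch was fitted as a covariate in the reported values.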

Additional observations from a re-analysis of the deposited data

Results flagged for a closer look

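The Ikaros minus control difference changed between times by a test of the change itself. From 6 h to 18 h 55 of the 74 genes were called lower by limma (adjusted p under 0.05, background 15.7%) and 0 higher. At an unadjusted p under 0.05 there were 60, against 41.5% of all genes. The 74 were chosen to fall from 2 h to 24 h and all genes were not, so these counts are no independent evidence of a turn. Among the genes with the largest falls, Slc16a3 changed by -3.83, and it is the only one of these 6 that is neither a small RNA nor a copy of another gene. The small RNAs Snord118 and Gm22068 changed by -5.51 and -3.91, the pseudogenes Pgk1-rs7 and Rps24-ps3 by -4.13 and -3.78, and Gm5506, a near copy of Eno1, by -4.02. Without replicate 1 the changes of Gm22068, Pgk1-rs7 and Rps24-ps3 did not pass (limma adjusted p 0.389, 0.24 and 0.171). Why they changed was not tested.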

How the results depend on the processing

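Named genes had 93 calls between the lines at 0, 6, 12 and 18 h and for the change from 6 h to 18 h. Of these, 55 passed under every alternative, 0 reversed and 38 were lost when a replicate was left out. With only the compared groups fitted 17 were lost, and with quantile normalization 1. A replicate block for culture batch, the low-value filter and the trend and robust settings lost 0. Calls within the Ikaros line are not among the 93, and some of those were lost too. Examples are Ankrd37, Stc2 and P4ha1 without replicate 2 (limma adjusted p 0.0853, 0.106 and 0.0924). With a replicate left out, the count of the 74 genes called ranged from 10 to 23 at 0 h (18 with all libraries), 14 to 42 at 6 h (36), 13 to 22 at 12 h (22), 35 to 44 at 18 h (46), 37 to 54 for the change from 6 h to 18 h (55), 53 to 64 for the Ikaros line (68) and 0 to 2 for the control line (0). With only the compared groups fitted, 20 were called at 6 h. The replicate block gave 23, 39, 26, 49, 58, 68 and 0 in the same order and ended no call of a named gene. Fits without a replicate use fewer libraries, and beyond that the cause was not tested. Over all genes the 0 h calls fell from 1063 to 432 without replicate 1 and to 318 without replicate 2, the 6 h calls from 4759 to 2640 and 2706 (2150 with only the compared groups), and the calls for the change from 3993 to 2291 and 1741. The control line went from 74 calls to 0 without replicate 1 or 2 and with only the compared groups, to 414 without replicate 3 and to 223 with the replicate block. Depth is unknown, so low values cannot be given a counting error, and the 0 h cells differ from the others in collection as well as in time.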
